A study of Homo sapiens with 21 samples.

Results

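The genes described here are 41 genes of the cell cycle and of DNA replication, chosen by their symbols from the 62699 genes of the count table used here. All 41 passed the filter on low counts, along with 25843 others, so 25884 genes were tested. The cells were made from H1, an established human embryonic stem cell line, by differentiation toward pancreatic islets (stem cell-derived islets). They were wild type (WT) or had the genotype ISL1-/-, PAX6-/- or PDX1-/-, each lacking a transcription factor of the endocrine pancreas. On day 11 of differentiation every culture received a lentivirus, either the ISL1 vector, which carries ISL1 and the blue fluorescent protein BFP on one transcript, or the BFP vector, which carries BFP alone. BFP+ cells were sorted and harvested on day 18, so every library, controls included, comes from transduced and sorted cells. Group names below give the genotype and then the vector. There were 2 libraries of PDX1-/- with ISL1 and 2 of WT with either vector, and 3 of every other group. The submitters call the replicates biological. Whether they came from separate differentiations, and how many clones stand behind each knockout line, is not given in the sources used here, so p-values measure the spread between these libraries, and the effects of a genotype and of its line cannot be told apart.

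A dividing cell passes from a growth phase into S phase, when it copies its DNA, and then into mitosis, when it separates the copies. E2F transcription factors and cyclin E with its kinase start S phase, the MCM proteins form the helicase that opens the DNA, and cyclin B with CDK1 starts mitosis. FOXM1 and MYBL2 drive the late genes, many of which carry a promoter element called CHR, near a CCAAT box. Most endocrine cells of the islet divide rarely, whereas the pancreatic progenitors they come from divide often, so RNA of these genes in a differentiating culture comes mainly from cells that have not left the cycle. In sorted bulk cells, fewer dividing cells and less of these RNAs in each cell cannot be told apart.

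By role, 10 genes were mitotic cyclins and kinases (CDK1, CCNB1, CCNB2, CCNA2, AURKA, AURKB, PLK1, TTK, BUB1, BUB1B). There were 13 of the spindle, the kinetochore and cell division (MKI67, TOP2A, BIRC5, UBE2C, CDC20, CENPE, CENPF, KIF11, KIF20A, TPX2, NUSAP1, PRC1, NDC80). The replication origin and fork gave 10 (MCM2 to MCM7, PCNA, CDC6, CDC45, GINS2). TYMS and RRM2 supply nucleotides and UHRF1 carries DNA methylation onto the new strand, which made 3. The last 5 were the S phase cyclins CCNE1 and CCNE2 and the transcription factors E2F1, FOXM1 and MYBL2. Levels are given as CPM, counts scaled to the size of their library with the TMM factors of edgeR. Per length, as TPM, PCNA was the most abundant of the 41 by its median over libraries (228), followed by UBE2C (150) and MCM3 (136). NUSAP1 (0.477) and PRC1 (0.447) were the least abundant.

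For NUSAP1, 86.8% of the exon bases are shared with other annotated genes, and for PRC1 61.9%. Their counts ran from 4 to 53 and from 11 to 82, so their values are uncertain. TYMS shares 47.9% of its exon bases, with ENOSF1 and TYMSOS, and CCNE2 shares 37.1%, mostly with INTS8, on the other strand. The library kit named in the labels does not mark strand. The other 39 genes had at least 120 counts in every library.

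Libraries held 36807615 to 60199880 counts, with a median of 50398068. ISL1 RNA was lower in ISL1-/- than in WT with the BFP vector (log2 fold change -2.42, SE 0.39, adjusted p = 0.00126, edgeR). It was also called lower in PDX1-/- with BFP (-1.43, SE 0.39, adjusted p = 0.0254, edgeR), and in PAX6-/- with BFP it was not called (-1.10, SE 0.39, adjusted p = 0.112, edgeR). A fall in ISL1 RNA was thus not particular to ISL1-/-. PAX6 RNA was not called in PAX6-/- against WT (-0.45, SE 0.45, adjusted p = 0.672) nor PDX1 RNA in PDX1-/- against WT (0.29, SE 0.23, adjusted p = 0.541), so gene counts do not check those labels, and the genotypes below are named as labelled. ISL1 counts did not check the vector label either (vector effect on ISL1 -0.24, SE 0.43, in WT and 0.56, SE 0.39, in PDX1-/-). All 13 endocrine markers were detected, with a summed level of 15720 to 159800 CPM. PAX6-/- with ISL1 replicate 3 and PDX1-/- with ISL1 replicate 4 stood apart from the rest, with 3.16% and 3.84% mitochondrial counts against 1.28 to 1.93% in the other 19. In PDX1-/- with ISL1 replicate 4, INS, the insulin gene, had 25610 CPM, against 87.5 to 8382 CPM in all other libraries. For the 41 genes, calls in comparisons that use them are given with and without them.

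Promoters are shown for the genes with the smallest adjusted p in any comparison: UBE2C, for which the promoter table used here has no entry, CCNB2, AURKB, GINS2, MCM6 and CCNB1. Each line gives the 250 bases before the RefSeq start site (GRCh38.p14), 5′ to 3′ on the gene's strand, with matches to the searched motifs in capitals. The CHR element was searched as TTTGAA and, in a variant form, as TTCGAA. The CCAAT box was searched as such, and E2F as TTTGGCGC, TTTGCCGC, TTTCGCGC or TTTCCCGC, each motif on both strands. CCNB2, at chr15:59104896-59105145 on the plus strand, encodes a mitotic cyclin. AURKB, at chr17:8210250-8210499 on the minus strand, encodes the kinase of the chromosomal passenger complex. GINS2, at chr16:85688955-85689204 on the minus strand, encodes a subunit of the replicative helicase. MCM6, at chr2:135876444-135876693 on the minus strand, encodes a ring subunit of that helicase. CCNB1, at chr5:69166900-69167149 on the plus strand, encodes the main mitotic cyclin. The AURKB and GINS2 windows lie inside the genes as annotated for the counts (8204733 to 8210600 and 85676198 to 85690073). They are downstream of the 5′ ends annotated there.
CCNB2: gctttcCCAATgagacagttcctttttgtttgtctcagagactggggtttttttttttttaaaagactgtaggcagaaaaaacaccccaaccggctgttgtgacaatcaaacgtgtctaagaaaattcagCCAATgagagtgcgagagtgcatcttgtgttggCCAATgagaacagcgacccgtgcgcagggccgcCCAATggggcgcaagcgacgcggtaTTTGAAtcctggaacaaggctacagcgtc
AURKB: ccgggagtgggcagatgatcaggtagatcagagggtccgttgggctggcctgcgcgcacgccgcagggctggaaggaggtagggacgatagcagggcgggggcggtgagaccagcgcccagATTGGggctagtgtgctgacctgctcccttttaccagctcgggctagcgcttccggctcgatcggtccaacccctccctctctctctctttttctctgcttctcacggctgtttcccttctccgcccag
GINS2: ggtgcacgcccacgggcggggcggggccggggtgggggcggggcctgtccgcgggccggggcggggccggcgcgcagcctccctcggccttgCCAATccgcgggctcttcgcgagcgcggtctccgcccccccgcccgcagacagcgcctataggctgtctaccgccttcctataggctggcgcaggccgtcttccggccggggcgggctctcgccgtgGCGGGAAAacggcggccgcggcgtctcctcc
MCM6: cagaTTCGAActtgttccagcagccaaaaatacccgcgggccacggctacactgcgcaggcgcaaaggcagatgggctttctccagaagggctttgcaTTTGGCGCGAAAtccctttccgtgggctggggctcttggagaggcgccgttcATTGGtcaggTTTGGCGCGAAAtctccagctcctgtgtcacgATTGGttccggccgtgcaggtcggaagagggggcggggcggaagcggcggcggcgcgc
CCNB1: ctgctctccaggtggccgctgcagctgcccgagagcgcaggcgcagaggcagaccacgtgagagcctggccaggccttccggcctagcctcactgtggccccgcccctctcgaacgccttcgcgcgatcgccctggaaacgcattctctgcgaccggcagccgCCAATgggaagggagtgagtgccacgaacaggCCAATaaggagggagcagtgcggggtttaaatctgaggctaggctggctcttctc

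CCNB2 held 4 CCAAT matches and a CHR match 29 to 24 bases before the start site. CCNB1 held 2 CCAAT matches and no CHR or E2F match. MCM6 held E2F matches on both strands that overlap each other, 4 in all, with 2 CCAAT matches and a distant CHR match. GINS2 held 1 E2F and 1 CCAAT match, and AURKB 1 CCAAT match. Both of these windows lie inside the annotated gene, so their matches do not describe the bases before its annotated start. Over the 42 RefSeq start sites of the 32 genes with an entry, a CCAAT match was present in 78.6% of windows, against 32% of all 35116 windows of this length in the table. An E2F match was present in 26.2% against 2.79%, and a CHR match in 26.2% against 14.3%. A match is a run of letters, not a measured binding site, and several start sites of a gene share sequence.

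The 41 genes moved together across the 8 groups. Every gene had its lowest group mean in PDX1-/- with BFP, and 39 of 41 had their highest in ISL1-/- with ISL1. PCNA and UBE2C were the exceptions, with their highest mean in PDX1-/- with ISL1, where replicate 4 was far above replicate 2. The summed level of the genes was 774.4, 831.4 and 1054 CPM in the 3 PDX1-/- libraries with BFP. It was 3096.5, 3700.4 and 3949 CPM in the 3 ISL1-/- libraries with ISL1. ISL1-/- with BFP came next, at 2070.1, 2836.1 and 2950.9 CPM. WT lay between, at 1253.5 and 1920.3 CPM with BFP and at 1683.3 and 2126.8 CPM with ISL1. The PAX6-/- libraries spread more widely than WT. With BFP their sums ran from 1264.9 to 2355.6 CPM, and the range with ISL1 was 1508.7 to 2742.1 CPM. PDX1-/- with ISL1 gave 1480.2 CPM in replicate 2 and 1793.9 CPM in replicate 4. The sums of the 3 PDX1-/- libraries with BFP were thus below all 18 others, and those of the 3 ISL1-/- libraries with ISL1 above all 18 others, while neighbouring groups between them overlapped. Over the 19 libraries that did not stand apart, the Spearman correlation of log2 CPM was above 0 for all 820 pairs of genes, with a median of 0.947 and a lowest value of 0.563. These points share library depth and cell makeup, so the values are a description.

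**Figure D1:**
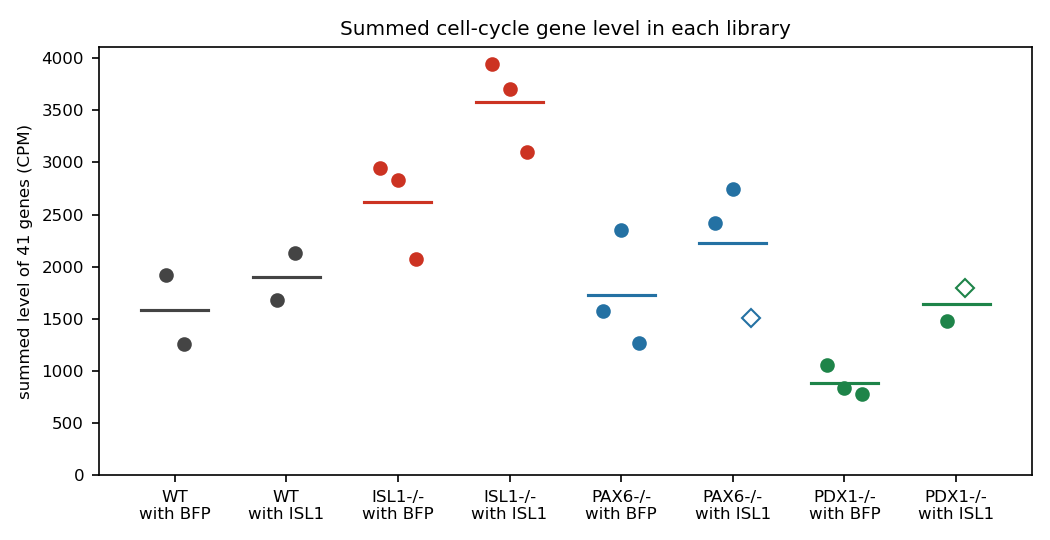
Summed level of the 41 genes in CPM (y axis, from 0) for each library, by group (x axis). Points are libraries, bars are group means, and open diamonds are the libraries that stood apart. PDX1-/- with BFP lies lowest (774.4 to 1054) and ISL1-/- with ISL1 highest (3096.5 to 3949).

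**Figure D2:**
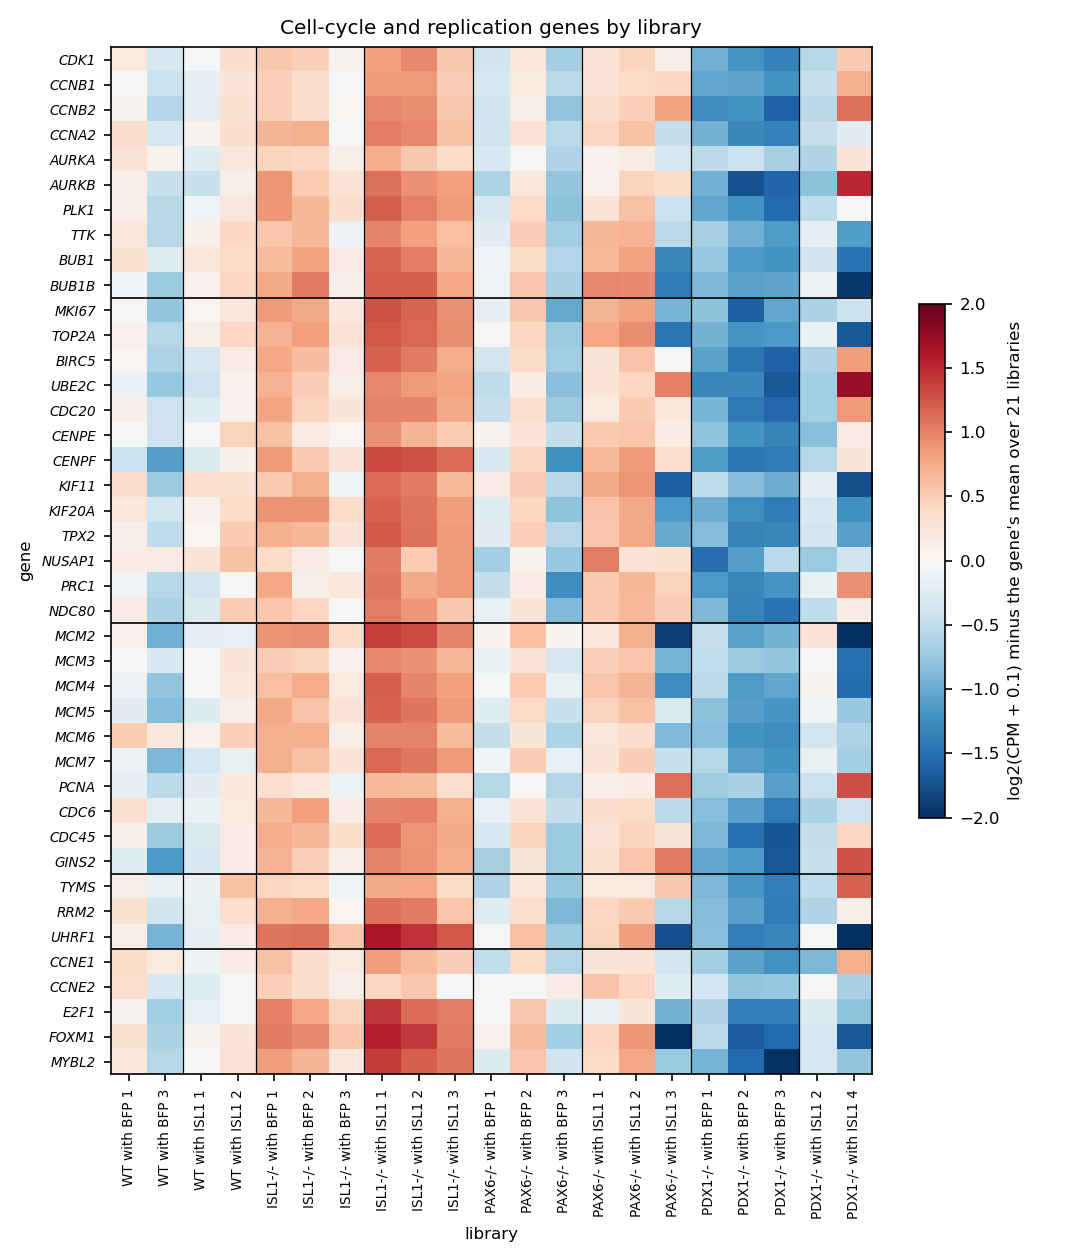
Level of each gene (rows, ordered by role with lines between roles) in each library (columns, lines between groups), as log2(CPM + 0.1) minus the gene's mean over the 21 libraries. Colours are cut off at -2 and 2. Nearly all rows are red in ISL1-/- with ISL1 and all are blue in PDX1-/- with BFP, while the libraries that stood apart (last of PAX6-/- with ISL1 and of PDX1-/- with ISL1) mix strong red and strong blue.

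PDX1-/- with the BFP vector was compared with WT with the same vector, a difference that includes any effect of the line. The fitted difference was below 0 for 41 of 41, with a median log2 fold change of -1.02, against a median of 0.03 over all genes tested. By edgeR's quasi-likelihood test, 7 genes fell, from replication, mitosis and S phase entry: MCM6, CDC6, CCNA2, CDK1, CCNE1, NUSAP1 and MYBL2. The roles did not shift equally, with a median log2 fold change of -0.53 over the origin and fork genes and of -1.02 to -1.10 in the other roles. Over all genes 9.68% were called in this comparison, and 5.65% were called lower. A further 19 of the 41 had an unadjusted p under 0.05, which made 26 in all. Of all 25884 genes, 5761 had such a p. In 32 of 41 genes every PDX1-/- library was below both WT libraries, a separation seen in 25.4% of all genes.

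MCM6 had 83.3 and 68.1 CPM in WT and 32.5, 25.4 and 24.5 CPM in PDX1-/-. The groups were far apart, and the fold change was -1.46 on the log2 scale (SE 0.33, adjusted p = 0.00816, edgeR). CDC6, which loads the MCM ring onto origins, had 38 and 27 CPM in WT against 16.9, 14.4 and 11.5 CPM (log2 fold change -1.19, SE 0.29, adjusted p = 0.0157, edgeR). None of the other origin and fork genes was called. CDC45, a part of the active helicase, came closest (log2 fold change -1.12, SE 0.35, adjusted p = 0.0528, edgeR). The log2 fold change was -0.66 for GINS2 and between -0.46 and -0.53 for MCM2, MCM3, MCM4, MCM5, MCM7 and PCNA. For MCM2 the groups overlapped, with 87.7 and 42.5 CPM in WT and 60.1, 39.5 and 42.8 CPM in PDX1-/-. PCNA, the sliding clamp of the polymerases, had 67.3 and 53.8 CPM in WT and 47.1, 48.9 and 36.4 CPM in PDX1-/-, without overlap.

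Of the mitotic genes, CDK1 had 52.8 and 36.8 CPM in WT and 23.5, 20.3 and 17.9 CPM in PDX1-/- (log2 fold change -1.12, SE 0.31, adjusted p = 0.0268, edgeR). CCNA2, the cyclin of S and G2 phase, had 42.1 and 25.9 CPM against 17.1, 13.4 and 12.9 CPM (-1.24, SE 0.33, adjusted p = 0.0237, edgeR). Both showed no overlap. CCNB1 had 91.8 and 67 CPM against 43.8, 43.3 and 39.3 CPM, also without overlap, and missed the threshold (-0.92, SE 0.29, adjusted p = 0.0577, edgeR). Common readouts of dividing cells were not called: MKI67, the proliferation antigen Ki-67, had 35.5 and 21.1 CPM in WT and 20.4, 11.6 and 17.4 CPM in PDX1-/-, and TOP2A, the topoisomerase that untangles chromosomes, had 107.6 and 68.5 CPM against 52.8, 44.7 and 45.8 CPM. NUSAP1 was called (-1.57, SE 0.48, adjusted p = 0.0452, edgeR) at a level of 0.484 CPM in both WT libraries and 0.0831 to 0.262 CPM in PDX1-/-, where its counts are few.

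CCNE1 had 22.7 and 20 CPM in WT and 10.8, 8.25 and 7.5 CPM in PDX1-/- (log2 fold change -1.27, SE 0.37, adjusted p = 0.0384, edgeR). Its relative CCNE2 was low in all groups, with 7.08 and 4.47 CPM in WT and 4.3, 3.25 and 3.3 CPM in PDX1-/-, and was not called. MYBL2 had 50 and 29 CPM against 22.6, 14.6 and 10.9 CPM (-1.30, SE 0.40, adjusted p = 0.0472, edgeR). E2F1 (16.4 and 9.61 CPM against 10.3, 5.91 and 5.97), FOXM1 (21.7 and 11.3 CPM against 12.2, 5.47 and 5.92) and UHRF1 (50.2 and 24.2 CPM against 25.4, 17.7 and 18.6) overlapped between the groups by 1 library. In each of these, PDX1-/- replicate 1 was above WT replicate 3.

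The WT group limits these calls. Without WT with BFP replicate 1, the WT library with the higher levels, 0 of 41 were called (2.03% of all genes called lower), and without replicate 3 there were 3 (2.41%). Leaving out PDX1-/- with BFP replicate 2 left 1 (3.07%) and replicate 3 left 2 (3.25%). The choice of fit also changed the count: with both libraries that stood apart left out, 29 of 41 were called lower (14.1% of all genes), with only the compared groups 26 (15.8%), and with DESeq2 18 (7.72%). The difference was below 0 for all 41 in the last 3 of these fits. They differ from the main fit in the libraries or the method as well as in the spread estimate, and the cause of the change was not tested. In the same PDX1-/- libraries, 4 of 5 enterochromaffin markers and 3 of 8 endocrine progenitor markers were called higher, with sums of 2411 to 2641 CPM (WT 557 to 642.9) and 2283 to 2741 CPM (WT 1002 to 1216). The 12 markers of pancreatic progenitors and duct summed to 1402 to 1461 CPM (WT 1799 to 1826, 1 called in each direction) and the 4 tested endothelial markers to 1.31 to 5.67 CPM (WT 15.6 to 26.8, 2 called lower). Markers of pluripotent cells summed to 21.4 to 33.1 CPM (WT 46 to 55.9, 1 of 5 tested called lower). The endocrine (66620 to 76210 CPM) and mesenchyme sums (112.7 to 865.4 CPM) overlapped with WT (66890 to 85500 and 241.3 to 1283 CPM). Of the 13 endocrine markers INS, insulin, was called lower (-5.46, adjusted p = 0.00361, edgeR) and INSM1 higher (1.91, adjusted p = 0.0102), and 0 of 12 mesenchyme markers were called. No marker of these lists that was tested was at 3 counts or fewer in all libraries. The part of cell makeup in the result was not tested.

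**Figure D3:**
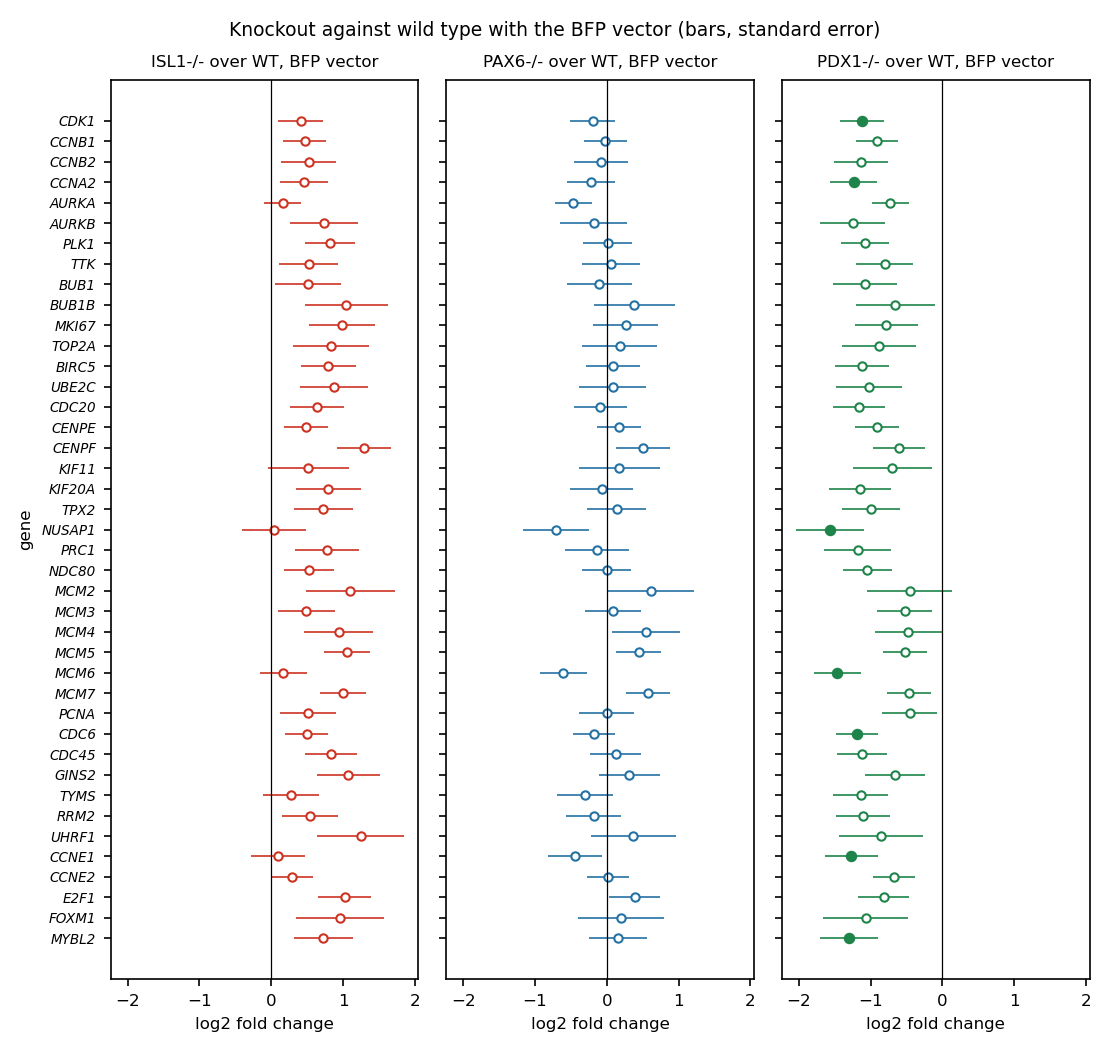
Log2 fold change of each gene (y axis) in ISL1-/-, PAX6-/- and PDX1-/- over WT with the BFP vector (x axis), with bars of 1 standard error. Filled points were called at an adjusted p under 0.05. All 41 points lie above 0 in ISL1-/- (none called) and below 0 in PDX1-/- (7 called), and they fall on both sides of 0 in PAX6-/-. The panels share the WT libraries.

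ISL1-/- cells leaned the other way from the same WT libraries. With the BFP vector 41 of 41 genes had a positive difference, with a median log2 fold change of 0.72 against 0.03 over all genes, yet 0 passed edgeR's test, where 5.59% of all genes were called. Unadjusted, 8 of 41 had a p under 0.05, a share close to that of all genes (4971 of 25884). DESeq2 called 3 (CENPF, MCM5 and MCM7), where it called 3.24% of all genes higher. CENPF, a kinetochore protein, was closest: 34.7 and 21.7 CPM in WT and 84.1, 67.2 and 55.7 CPM in ISL1-/- (log2 fold change 1.29, SE 0.38, adjusted p = 0.0562, edgeR). MCM5 had 46.6 and 29.6 CPM in WT and 91.5, 80.6 and 65.4 CPM in ISL1-/- (1.05, SE 0.32, adjusted p = 0.0644, edgeR). MCM7 had 162.7 and 94.8 CPM against 292.2, 264.9 and 214.4 CPM (1.00, SE 0.32, adjusted p = 0.0762, edgeR). None of these groups overlapped. Every ISL1-/- library was above both WT libraries in 24 of 41 genes, against 26.0% of all genes.

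Values of other genes in this comparison followed the same order. MKI67 had 65.4, 61.1 and 41.6 CPM in ISL1-/-, and TOP2A had 164.9, 180.5 and 122.9 CPM, both above WT in all libraries. MCM2 had 154.1, 157 and 107.7 CPM, PCNA 97.5, 89.5 and 72.1 CPM, and UHRF1 97, 99.3 and 67.8 CPM, all above both WT libraries. E2F1 (31.6, 26.8 and 21.1 CPM) and FOXM1 (36.3, 33.9 and 25.8 CPM) were likewise above WT. CDK1 (66.8, 63.7 and 48.5 CPM), CCNB1 (125.8, 114.6 and 88.9 CPM), CCNE1 (26.4, 22.3 and 19.8 CPM) and CCNE2 (7.84, 7.23 and 6.16 CPM) overlapped with WT, with ISL1-/- replicate 3 the lowest of its group. The count of calls depended on the fit: 21 of 41 were called higher with only the compared groups in the fit (11.9% of all genes) and 14 with both libraries that stood apart left out (11.3%). The cause of this change was not tested.

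With the ISL1 vector, ISL1-/- cells were again above WT cells, with a positive difference for 41 of 41, a median log2 fold change of 0.82 and 19 genes at an unadjusted p under 0.05. Of all 25884 genes, 4388 had such a p. MCM7 alone rose by edgeR's test, where 3.72% of all genes were called and 1.02% were called higher. It had 138.6 and 158.8 CPM in WT and 392, 365.8 and 318.4 CPM in ISL1-/- (log2 fold change 1.27, SE 0.32, adjusted p = 0.0328). The call depended on each of the 5 libraries compared: without any of them it missed the threshold, at log2 fold changes of 1.16 to 1.37. In 38 of 41 genes all ISL1-/- libraries were above both WT libraries, against 25.2% of all genes, and the exceptions were NUSAP1, TYMS and CCNE2.

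Examples from each role show the separation. MKI67 had 37.3 and 42.2 CPM in WT and 87, 81.2 and 68.2 CPM in ISL1-/-. TOP2A had 110 and 136.1 CPM against 239.8, 226.1 and 194.4 CPM. MCM2 had 72.7 and 74.2 CPM against 217, 205.3 and 162.5 CPM. These 3 genes did not overlap between the groups. PCNA (66.1 and 89 CPM against 120.8, 119.9 and 96.6) and CDK1 (44.7 and 58.6 CPM against 81.1, 89.7 and 67.1) were closer but did not overlap either. E2F1 had 14 and 15.2 CPM in WT and 42.2, 33.9 and 31.7 CPM in ISL1-/- (log2 fold change 1.30, SE 0.37, adjusted p = 0.0596, edgeR). FOXM1 (18.5 and 21.1 CPM against 51.3, 47 and 36.3), UHRF1 (40.5 and 51.6 CPM against 141.7, 126.3 and 109.9), CCNB1 (79.5 and 108.9 CPM against 162.6, 162.3 and 126.7) and CCNE1 (16.4 and 19.7 CPM against 31.5, 27.3 and 24.6) followed the same order.

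Other fits called more: 36 of 41 with only the compared groups (10.1% of all genes called higher), 22 with both libraries that stood apart left out (8.22%) and 4 with DESeq2 (2.55%). Beside these values, the endocrine markers summed to 29820 to 39230 CPM in ISL1-/- with BFP (WT 66890 to 85500) and to 19950 to 30730 CPM in ISL1-/- with ISL1 (WT 56980 to 65520), and 3 and 2 of 13 were called lower. With BFP, GCG, the glucagon gene, carried most of this gap, at 74.2 to 90.9 CPM against 36250 and 51320 CPM in WT. INS was lower too (1700 to 2392 CPM against 5651 and 7185). CHGA overlapped WT, and INSM1 (1402 to 1623 CPM against 632.7 and 965.9) and SYP (139.2 to 224.1 CPM against 94 and 115.4) were above it. Enterochromaffin markers summed to 1510 to 1955 CPM in ISL1-/- with BFP (WT 557 to 642.9, 4 of 5 called higher) and to 669.9 to 842.7 CPM in ISL1-/- with ISL1 (WT 359 to 405.4, 1 called higher). Markers of mesenchyme summed to 129.5 to 236.7 CPM in ISL1-/- with ISL1 and to 1733 and 2046 CPM in WT with ISL1 (1 of 12 called lower). The endocrine progenitor markers summed to 1848 to 2496 CPM in ISL1-/- with BFP (WT 1002 to 1216, 0 of 8 called) and to 1497 to 1677 CPM with ISL1 (WT 917.5 to 958.3, 1 called higher). The 4 tested endothelial markers summed to 4.27 to 7.18 CPM in ISL1-/- with BFP (WT 15.6 to 26.8) and to 10.6 to 16.58 CPM with ISL1 (WT 27.96 to 37.14), and 0 were called. Markers of pancreatic progenitors and duct summed to 1724 to 1917 CPM with BFP (WT 1799 to 1826), where NKX6-1 was called higher and SPP1 lower. With ISL1 they summed to 1752 to 1878 CPM (WT 1740 to 1761). Markers of pluripotent cells summed to 41.98 to 46.58 CPM with BFP (WT 45.98 to 55.91) and to 64.2 to 66.14 CPM with ISL1 (WT 49.89 to 59.39). The part of these markers in the result was not tested.

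In PAX6-/- the differences from the same WT libraries lay on both sides of 0. With the BFP vector 23 had a positive and 18 a negative difference, with a median log2 fold change of 0.06, and 0 of 41 were called by edgeR (5.51% of all genes) or by DESeq2, or had an unadjusted p under 0.05. The smallest p belonged to MCM6 (-0.61, SE 0.33, adjusted p = 0.338, edgeR), MCM7 (0.57, SE 0.31, adjusted p = 0.343, edgeR) and AURKA (-0.47, SE 0.26, adjusted p = 0.349, edgeR). AURKA, a spindle pole kinase, had 24, 29.5 and 19.4 CPM in PAX6-/- and 36.1 and 31.2 CPM in WT, without overlap. The 3 PAX6-/- libraries differed widely, with MKI67 at 31.9, 52.3 and 17.6 CPM, TOP2A at 103.7, 134.9 and 60.4 CPM and CDK1 at 34.7, 53.8 and 28.6 CPM. In each of these, replicate 2 was highest and replicate 3 lowest, and the group overlapped WT. With the ISL1 vector 37 of 41 were above WT, with a median of 0.16 against 0.13 over all genes. None was called by edgeR (3.56% of all genes) or DESeq2, or had an unadjusted p under 0.05, and CENPF (0.70, SE 0.37, adjusted p = 0.355), PRC1 (0.79, SE 0.44, adjusted p = 0.377) and GINS2 (0.74, SE 0.43, adjusted p = 0.409) came first. With both libraries that stood apart left out, 39 of 41 were above WT with a median of 0.40 against 0.03 over all genes, 5 had an unadjusted p under 0.05 and 0 were called (12.2% of all genes). Of all 27284 genes in that fit, 7161 had an unadjusted p under 0.05, a larger share than 5 of 41.

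The ISL1 vector was compared with the BFP vector within each genotype. In WT 36 of 41 genes had a positive difference with a median log2 fold change of 0.27. None was called by edgeR (0.0270% of all genes) or DESeq2, and none had an unadjusted p under 0.05. CENPF (0.64, SE 0.40), MCM5 (0.45, SE 0.34) and CENPE (0.44, SE 0.34) had the smallest p, each with an adjusted p of 1 by edgeR. MKI67 had 35.5 and 21.1 CPM with BFP and 37.3 and 42.2 CPM with ISL1.

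In ISL1-/- the difference was positive for 41 of 41, with a median log2 fold change of 0.43 against 0.03 over all genes. By edgeR 0 were called (0.382% of all genes) and 0 had an unadjusted p under 0.05, and DESeq2 called 0. CENPF (0.68, SE 0.33, adjusted p = 0.672), NUSAP1 (0.73, SE 0.38, adjusted p = 0.751) and MCM5 (0.50, SE 0.28, adjusted p = 0.785) came first by edgeR. Every library with ISL1 was above every library with BFP in 20 of 41 genes, among them MKI67, TOP2A, CDK1, CCNB1, MCM2, E2F1, FOXM1 and UHRF1, against 13.0% of all genes. CENPF had 84.1, 67.2 and 55.7 CPM with BFP and 116.5, 113.3 and 101.5 CPM with ISL1, and it was the only gene of the 41 called with the compared groups alone in the fit (adjusted p = 0.0266, edgeR), where 2.84% of all genes were called higher.

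In PAX6-/- the difference was positive for 39 of 41, with a median of 0.43 against 0.11 over all genes. None was called by edgeR (0.355% of all genes) or DESeq2, and 9 had an unadjusted p under 0.05, as did 2658 of all 25884 genes. With both libraries that stood apart left out, 40 of 41 were positive with a median of 0.57 against 0.01 over all genes, 27 had an unadjusted p under 0.05 and 0 were called (4.97% of all genes, smallest adjusted p = 0.0591, edgeR). Of all 27284 genes in that fit, 5471 had an unadjusted p under 0.05. With all libraries NUSAP1 (1.19, SE 0.40, adjusted p = 0.285), PRC1 (1.09, SE 0.39, adjusted p = 0.323) and GINS2 (0.99, SE 0.38, adjusted p = 0.379) came first by edgeR. Same-numbered PAX6-/- libraries were taken as pairs from their correlated deviations, not from the labels. With the replicate block, which is fitted over all groups, 1 gene was called, CCNB2 (0.93, adjusted p = 0.0367, edgeR). In that fit 2.23% of all genes were called, so 1 of 41 is near that share. CCNB2 had 22.6, 32.8 and 17.2 CPM with BFP and 38.2, 41.6 and 52.2 CPM with ISL1 in replicates 1, 2 and 3, higher with ISL1 without overlap. In replicate 3 with ISL1, a library that stood apart, the genes split against replicate 3 with BFP. PCNA had 51.5 CPM with BFP and 165.2 CPM with ISL1, while MCM2 had 85.6 and 22.4 CPM and FOXM1 10.9 and 4.22 CPM.

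In PDX1-/- the ISL1 vector gave the most calls. The BFP libraries of this comparison are those that were lower than WT above, so the comparisons share them. By edgeR 14 of 41 genes rose, where 12.5% of all genes were called and 8.19% were called higher, and all 41 had a positive difference (median 0.65 against 0.13 over all genes). They were UBE2C, CCNB2, AURKB, GINS2, CCNB1, PRC1, TYMS, BIRC5, CDC20, CDK1, CDC45, PCNA, CENPF and NDC80, by increasing adjusted p. By role these were 4 of 10 mitotic cyclins and kinases, 6 of 13 spindle and division genes, 3 of 10 origin and fork genes, 1 of 3 of the nucleotide and methylation genes and 0 of 5 of the S phase cyclins and transcription factors. The calls rested on replicate 4. Without it 0 were called (1.89% of all genes called higher). With both libraries that stood apart left out, 3 were called (5.46%), MCM5, MCM4 and MCM2, none of them among the 14. With only the compared groups in the fit 0 were called, and 0 of all genes were called higher. DESeq2 called 17 higher (11.7%). Without PDX1-/- with BFP replicate 2 there were 8 (3.28%) and without replicate 3 there were 6 (2.88%).

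UBE2C, the ubiquitin-conjugating enzyme of the anaphase-promoting complex, had 17.1, 17.2 and 13.1 CPM with BFP, 26.6 CPM in ISL1 replicate 2 and 142.7 CPM in replicate 4 (log2 fold change 2.42, SE 0.46, adjusted p = 0.00381, edgeR). AURKB had 18.1, 10.6 and 11.8 CPM with BFP and 20.1 and 101.5 CPM with ISL1 (2.17, SE 0.46, adjusted p = 0.00696, edgeR). CCNB2 had 12.6, 13 and 9.59 CPM with BFP and 20.1 and 64.3 CPM with ISL1 (1.85, SE 0.37, adjusted p = 0.0054, edgeR). In all 3, replicate 2 was above the BFP libraries, and replicate 4 was several times higher still.

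GINS2 had 11.7, 10.8 and 7.26 CPM with BFP and 17.7 and 58.1 CPM with ISL1 (log2 fold change 1.94, SE 0.42, adjusted p = 0.00805, edgeR). CCNB1 had 43.8, 43.3 and 39.3 CPM with BFP and 65.1 and 148.2 CPM with ISL1 (1.34, SE 0.29, adjusted p = 0.00864, edgeR). PCNA had 57.4 CPM in ISL1 replicate 2 and 188 CPM in replicate 4, CDK1 30.9 and 66 CPM. For the other 7 of the 14, too, replicate 4 was above replicate 2 and replicate 2 above all BFP libraries: BIRC5, for example, a survival and passenger complex protein, had 24, 18.2 and 16.4 CPM with BFP and 33.3 and 90.2 CPM with ISL1.

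The 2 ISL1 libraries differed gene by gene. Replicate 2 was above the mean of the BFP libraries in 40 of 41 genes, with log2 differences of -0.07 (AURKA) to 1.23 (PRC1) and a median of 0.74 against 0.01 over all genes. Replicate 4 was above it in 29 and below in 12, from -1.39 for MCM2 to 3.19 for UBE2C. MCM2 had 60.1, 39.5 and 42.8 CPM with BFP, 100.4 CPM in replicate 2 and 17.8 CPM in replicate 4. TOP2A had 92.9 CPM in replicate 2 and 31.3 CPM in replicate 4, and UHRF1 45.1 and 11.5 CPM. FOXM1 had 13.8 and 5.36 CPM, E2F1 12.9 and 8.92 CPM, MKI67 23.2 and 26.9 CPM, CCNE1 9.35 and 29.1 CPM and CCNE2 5.72 and 3.56 CPM. Genes of the same complex thus went in opposite directions in replicate 4, such as MCM2 and GINS2 of the replicative helicase.

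The split went in part with gene length. Against the rest of its group, PDX1-/- with ISL1 replicate 4 had a median log2 difference of 1.58 over the 14 shortest of the 41 genes (exon length 1286 to 3219 bases), -0.68 over the 13 of 3554 to 4760 bases and -0.61 over the 14 of 4919 to 12845 bases. Over all genes of the same lengths these medians were 0.56, -0.22 and -0.68. In PAX6-/- with ISL1 replicate 3 they were -0.02, -1.18 and -1.36 for the 41 genes and 0.47, -0.14 and -0.53 for all genes. Spearman's correlation of the difference with length over the 41 genes was -0.56 and -0.571 in these libraries and -0.037 in PAX6-/- with ISL1 replicate 2, as a description over genes that share a library. UBE2C (1286 bases), PCNA (1403 bases) and AURKB (2241 bases), among the highest in replicate 4, are among the shortest. In that library 12 of the 14 shortest genes were higher than in the rest of the group, 5 of the 13 middle ones and 6 of the 14 longest. Long genes that were higher included CENPF (12471 bases, 0.82) and CENPE (9928 bases, 0.995), so length did not order all of the split. RNA quality was not measured in these files, and its part in the result was not tested.

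**Figure D4:**
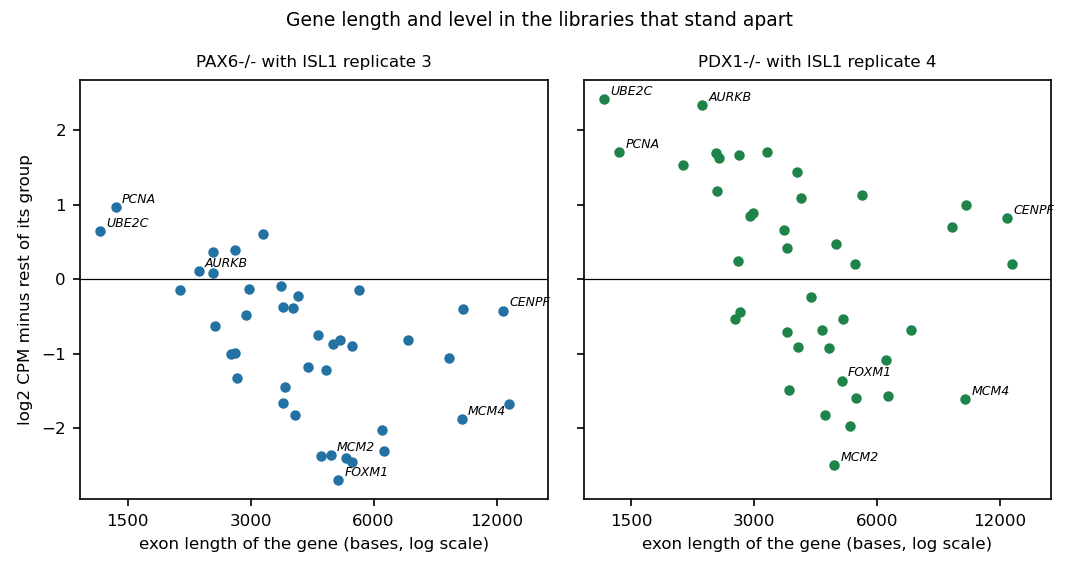
Difference in log2 CPM of each gene from the rest of its group (y axis) against its exon length in bases (x axis, log scale), in PAX6-/- with ISL1 replicate 3 and PDX1-/- with ISL1 replicate 4. Points are the 41 genes, some of them named. Short genes such as UBE2C and PCNA lie highest and the lowest points, FOXM1 on the left and MCM2 on the right, are in genes of 4715 bases or more.

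With the ISL1 vector, PDX1-/- was not called different from WT for any of the 41 by edgeR (0.634% of all genes) or DESeq2. There were 12 positive and 29 negative differences, a median of -0.33 and 5 genes with an unadjusted p under 0.05. Of all 25884 genes, 4164 had such a p, a larger share than 5 of 41. NUSAP1 (-1.27, SE 0.51, adjusted p = 0.292), BUB1 (-1.16, SE 0.50, adjusted p = 0.297) and MCM6 (-0.80, SE 0.36, adjusted p = 0.301) came first by edgeR. With both libraries that stood apart left out, 4 differences were positive and 37 negative, with a median of -0.53, 5 genes at an unadjusted p under 0.05 and 0 called (6.66% of all genes). Without PDX1-/- with ISL1 replicate 2, 12 of 41 were called, 5 of them higher and 7 lower, a share near the 32.2% of all genes called in that fit. BUB1, a checkpoint kinase, had 34.1 and 37.8 CPM in WT, 21.9 CPM in PDX1-/- replicate 2 and 10.3 CPM in replicate 4.

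Whether the vector acted differently in a knockout than in WT was tested as the difference of the vector effects. No gene of the 41 was called by edgeR for ISL1-/- (0.00386% of all genes), PAX6-/- (0%) or PDX1-/- (1.19%). Unadjusted, 0, 0 and 12 had a p under 0.05, the last where 4150 of all 25884 genes did. DESeq2 called 0, 0 and 2 (AURKB and UBE2C), the last where 4.20% of all genes were called. The smallest p in PDX1-/- belonged to AURKB (2.16, SE 0.69, adjusted p = 0.136), UBE2C (2.15, SE 0.69, adjusted p = 0.139) and PRC1 (1.88, SE 0.67, adjusted p = 0.178), all by edgeR. Without PDX1-/- with ISL1 replicate 2, so with replicate 4 alone in that group, 13 of 41 were called, a share near the 30.8% of all genes. Leaving out both libraries that stood apart, 0 were called for PAX6-/- (0.147% of all genes) and for PDX1-/- (2.36%), and 39 and 40 of 41 differences were positive. In ISL1-/- AURKA (0.40, SE 0.37), CCNE1 (0.53, SE 0.53) and CDC6 (0.38, SE 0.42) and in PAX6-/- PRC1 (0.93, SE 0.62), NUSAP1 (0.87, SE 0.63) and AURKA (0.45, SE 0.37) came first, with adjusted p of 1 and 0.894 by edgeR.

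MCM6 and MCM7 encode subunits of the same ring, and their RNAs did not keep a fixed ratio. The ratio of MCM7 to MCM6 counts was 1.39 to 2.24 in the 4 WT libraries and 2.78 to 4.12 in the 17 knockout libraries, with no overlap. In WT it was 1.95 and 1.39 with BFP and 2.24 and 1.94 with ISL1. It was 2.78 to 3.53 in ISL1-/-, 3.11 to 4.12 in PAX6-/- and 2.92 to 3.67 in PDX1-/-, so each knockout line, with either vector, was above WT. It was 4.11 and 2.92 in the libraries that stood apart, within the range of the other knockout libraries. The pair was chosen after its values were seen, so no test is given.

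Genes around the 41 in the pathway were read from lists of related genes. Of 7 CDK inhibitors, CDKN1A (p21), which stops the cycle, fell in ISL1-/- against WT with the BFP vector (log2 fold change -1.93, SE 0.28, adjusted p = 0.000602, edgeR) and with the ISL1 vector (-1.96, SE 0.28, adjusted p = 0.000925, edgeR). It fell too in PAX6-/- (-1.40, SE 0.28, adjusted p = 0.00781, and -1.31, SE 0.28, adjusted p = 0.0131, edgeR), where none of the 41 was called. In PDX1-/- with BFP it was not called (-0.86, SE 0.28, adjusted p = 0.0631, edgeR). CDKN1A had 213.2 and 249.8 CPM in WT with BFP, 54.8 to 67.4 CPM in ISL1-/-, 79.4 to 100.5 CPM in PAX6-/- and 119.8 to 135.7 CPM in PDX1-/-, all below WT. CDKN2A (p16 and p14ARF) was called lower in PAX6-/- with BFP (-2.16, SE 0.52, adjusted p = 0.0209, edgeR) and in ISL1-/- with ISL1 (-1.79, SE 0.48, adjusted p = 0.0465, edgeR). Its level was very low, at 0.857 and 0.695 CPM in WT with BFP and 0.114 to 0.208 CPM in PAX6-/- with BFP, so these calls are uncertain.

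Of 6 D-type cyclins and kinases of G1 and S phase, CDK6 fell in ISL1-/- against WT (log2 fold change -1.59, SE 0.22, adjusted p = 0.000453 with BFP, and -1.47, SE 0.22, adjusted p = 0.00117 with ISL1, edgeR), and in PDX1-/- with ISL1 (-1.15, SE 0.25, adjusted p = 0.0435, edgeR). CDK2, the kinase partner of cyclin E, fell in PDX1-/- with BFP (-1.0, SE 0.26, adjusted p = 0.0219, edgeR). Of 17 genes of the RB, E2F and DREAM group, 0 were called by edgeR in any of the 13 comparisons with all 21 libraries in the fit.

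Of 35 other replication genes, 3 fell in PDX1-/- with BFP against WT: FEN1, the flap endonuclease (-0.88, adjusted p = 0.022, edgeR), ORC6 of the origin complex (-1.22, adjusted p = 0.0305) and RFC5 of the clamp loader (-0.72, adjusted p = 0.0374). Over all genes 5.65% were called lower there, so 3 of 35 was not far from that share. The differences of 33 of the 35 were negative, with a median of -0.64. In ISL1-/- with ISL1 2 rose, DNMT1 (0.79, adjusted p = 0.0414, edgeR) and CHAF1A (1.25, adjusted p = 0.0475), where 1.02% of all genes were called higher. There 34 of 35 differences were positive (median 0.78). With BFP 30 of 35 were positive in ISL1-/- (median 0.60) and 0 were called. Of 47 other mitotic genes, 8 fell and 1 rose in PDX1-/- with BFP, led by WEE1 (-1.59, adjusted p = 0.00659, edgeR), MELK (-1.66, adjusted p = 0.00725), HMMR (-1.25, adjusted p = 0.0138) and CKAP2L (-1.70, adjusted p = 0.016). Of all 25884 genes, 1463 were called lower and 1043 higher there. The gene that rose was CDC25B, a phosphatase that activates CDK1 (0.82, adjusted p = 0.0164). INCENP, of the passenger complex, rose in ISL1-/- with ISL1 (1.34, adjusted p = 0.0483, edgeR), and SMC2, a condensin subunit, fell in PAX6-/- with BFP (-1.53, adjusted p = 0.0176). Over all genes, 1.02% were called higher in the first comparison and 843 of 25884 lower in the second.

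With the ISL1 vector in PDX1-/-, 10 of 35 other replication genes rose, led by GINS4 (2.11, adjusted p = 0.00265, edgeR), POLE2 (1.55, adjusted p = 0.00382) and TK1 (2.24, adjusted p = 0.00704). Over all genes in this comparison 8.19% were called higher and 1120 of 25884 lower. Of the 47 mitotic genes 19 rose and 1 fell, led by SGO1 (2.07, adjusted p = 0.00364, edgeR), CENPU (1.61, adjusted p = 0.0044), CENPM (2.27, adjusted p = 0.00451) and SPC24 (2.56, adjusted p = 0.00591), with CDC25B the gene that fell (-1.08, adjusted p = 0.00381). CDKN2A (1.99, adjusted p = 0.0143, edgeR), CDKN1C (1.04, adjusted p = 0.0338) and CCND1 (0.85, adjusted p = 0.0435) rose as well. CDKN2A was very low here too, with 0.286 to 0.459 CPM with BFP and 0.688 and 2.43 CPM with ISL1. These calls use replicate 4 too. When both libraries that stood apart were left out, PDX1-/- with ISL1 kept 1 library, and far fewer genes of these lists were called higher. In PDX1-/- the ISL1 vector came with lower levels of all 5 enterochromaffin markers, which summed to 847.9 and 492.2 CPM against 2411 to 2641 CPM with BFP. Markers of pancreatic progenitors and duct summed to 1749 and 3452 CPM with ISL1 against 1402 to 1461 CPM with BFP, and 4 of 12 were called higher and 1 lower. Endocrine markers summed to 40120 and 159800 CPM against 66620 to 76210 CPM (3 of 13 called higher, 2 lower), and endocrine progenitor markers to 1545 and 1851 CPM against 2283 to 2741 CPM (2 of 8 called lower). Single markers differed widely between the 2 ISL1 libraries. Replicate 4 had INS at 25610 CPM, against 164 CPM in replicate 2, 87.5 to 186.3 CPM with BFP and 5651 to 8382 CPM in WT. GCG had 106100 CPM in replicate 4 and 11660 CPM in replicate 2, INSM1 251.3 and 1283 CPM and SOX9 17.6 and 177.3 CPM. The part of these markers in the result was not tested.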

How the data were processed

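RNA was measured in 21 libraries of sorted stem cell-derived islet cells in 8 groups. The authors deposited a table of whole-number counts per gene, unnormalized, and per the submitters' processing notes they used STAR 2.7.11b and featureCounts 2.1.1 with the genome GRCh38. Strand and multi-mapping settings are not given in the sources used here. Of the 62700 genes in the table, 1 had a broken entry and was left out. Groups come from the labels, and replicate numbers from the library names in the descriptions.

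Counts were filtered by group (filterByExpr, minimum count 10, total 15), scaled by TMM and fitted with edgeR 4.0.16 in R 4.3.3 (quasi-likelihood test, a coefficient per group over all 21 libraries, no replicate block, common biological coefficient of variation 0.334). P-values were adjusted by Benjamini-Hochberg over the 25884 genes of each comparison, and genes were called at an adjusted p under 0.05. DESeq2 1.42.0 was an alternative, beside other normalization and filter choices, a replicate block, fits of only the compared groups and left-out libraries. The fit was tested on simulated data. Levels per length use the exon length in the table. Non-overlap counts use log2 CPM with a prior count of 2.

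Same-numbered libraries were taken as pairs in PAX6-/- (correlations of deviations 0.155, 0.391 and 0.333 between vectors). Of 57 same-numbered pairs of libraries across all groups, 19 exceeded 0.1. The highest, 0.418, was between PAX6-/- and PDX1-/- with ISL1, so such values do not set PAX6-/- apart. In ISL1-/- they were 0.183, 0.099 and 0.293, which did not meet the rule that each exceed 0.1. The pairing of PAX6-/- rests on these values, since the labels do not say what a number marks.

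The genes and lists were chosen with earlier results of these data known. In each comparison called genes are named, up to 15 by smallest adjusted p, and where none was called the 3 with the smallest p. Values per library are given for 11 genes fixed by role and for leading called genes. From the related lists up to 5 called genes are named. Promoters are shown for the 6 genes with the smallest adjusted p that are not on chromosome 8. Promoter sequences are RefSeq's (GRCh38.p14, 32 of 41 genes matched by symbol); where a gene has several, the most upstream is shown.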

Additional observations from a re-analysis of the deposited data

How the results depend on the processing

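Reversals were counted for genes of the 41 called in the main fit. None of their fold changes reversed in the other fits or without 1 library of the groups compared. Genes called only in another fit were not counted. MCM2 and MCM4, for example, were above the BFP libraries in PDX1-/- with ISL1 replicate 2 (log2 differences 1.105 and 0.976). In replicate 4 they were below them (-1.388 and -0.633). For the vector in PDX1-/-, the replicate block is not a separate check. Replicate 4 with ISL1 is the only library numbered 4, so the block left replicate 2 to carry that comparison (39 of 41 positive, median 0.48). Among the 41 genes the block gave 1 call for the vector in PAX6-/-. Against WT it gave 4 for ISL1-/- with BFP, 2 for PAX6-/- with BFP, 26 for PDX1-/- with BFP and 23 for ISL1-/- with ISL1. Of all 25884 genes, 3150, 3358, 4594 and 2423 were called in these 4 comparisons. The 4 and the 2 were thus below the share over all genes. Outside PAX6-/- the libraries share only a number, and apart from the vector in PDX1-/- the block changed no other count. For the vector in WT, with 0 called either way, the block gave 20 positive and 21 negative differences with a median of -0.01. With only the compared groups the counts were 1 for the vector in ISL1-/-, 0 for it in PDX1-/-, 21 for ISL1-/- with BFP, 26 for PDX1-/- with BFP and 36 for ISL1-/- with ISL1. DESeq2 called 3, 18 and 4 in the last 3 of these, 17 for the vector in PDX1-/- and 2 for the difference of vector effects in PDX1-/-. Without the filter on low counts the counts for ISL1-/- with BFP, PDX1-/- with BFP and ISL1-/- with ISL1 were 1, 15 and 3. With both libraries that stood apart left out, a choice made after seeing the data, they were 14, 29 and 22, and 3 for the vector in PDX1-/-. The cause was not tested. Leaving out 1 library at a time gave 0 to 19 for the vector in PDX1-/-, 0 to 3 for ISL1-/- with BFP, 0 to 20 for PDX1-/- with BFP, 0 to 8 for ISL1-/- with ISL1, 0 to 12 for PDX1-/- with ISL1 and 0 to 13 for the PDX1-/- difference. For PDX1-/- with BFP, leaving out PAX6-/- with ISL1 replicate 3, PDX1-/- with ISL1 replicate 2 or replicate 4 gave 19, 20 and 19. Leaving out replicate 2 of ISL1-/- with BFP or with ISL1, or either WT library with ISL1, gave 4. With 2 libraries in a group, a left-out library leaves 1, whose spread is taken from the other groups. The share of all genes called also changes between these fits. Counts given without that share therefore say nothing about the 41 genes in particular. Depth limits NUSAP1 and PRC1, which had as few as 4 and 11 counts.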
